A study of Mus musculus with 2 samples.

Results

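Connexins are the subunits of gap junctions, and 5 of their genes, Gja1, Gjb1, Gjb2, Gjb5 and Gjb6, were followed in mouse back skin. All probe sets annotated to these symbols were taken, which gave 11 of the 22690 probe sets on the array, and 5 of 12393 nameable genes. The values came from 2 arrays, 1 per genotype. The first array held skin of transgenic mice, titled K14Ahr, whose keratinocytes express the aryl hydrocarbon receptor (AhR) in a constitutively active form. The other held skin of non-transgenic wild-type mice, and both were taken at 10 days of age. AhR is a ligand-activated transcription factor of the response to dioxins and related compounds, and the active form signals without a ligand. The labels do not spell out the promoter of the transgene, the strain or the number of animals behind an array, and they name no treatment. The RNA came from whole skin, so it holds dermis, hair follicles and vessels as well as keratinocytes. With 1 array per genotype no difference could be tested, no replicate error exists, and every comparison below is between these 2 arrays only.

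A connexin spans the cell membrane, assembles with others into a hemichannel, and docks with a hemichannel of the neighbouring cell to form a channel through which ions and small metabolites pass. The alpha connexin encoded by Gja1 (Cx43) is the main connexin of basal and spinous keratinocytes and is also made by many dermal cells. The beta connexins encoded by Gjb2 (Cx26), Gjb6 (Cx30) and Gjb5 (Cx31.1) are found in epidermis and hair follicles, and in human skin mutations of GJB2 and GJB6 cause disorders of keratinisation. In human skin Cx26 is known to be scarce in resting interfollicular epidermis and to rise in psoriatic and wounded epidermis. Gjb1 (Cx32) is best known from hepatocytes and Schwann cells. In the gene table used for names, Gjb2 and Gjb6 are neighbouring protein-coding genes beside Gja3 on chromosome 14, Gjb5 is on chromosome 4, Gja1 is on chromosome 10 and Gjb1 on chromosome X.

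The regions around the transcription starts of the 4 connexin genes with a measurable signal are shown, because AhR with its partner ARNT binds DNA at the xenobiotic response element, whose core is GCGTG. Each sequence is the RefSeq window of 300 bases on GRCm38.p6, from 250 bases before the start to 50 after it, read along the gene's strand. Capitals mark the core, searched on both strands, and its reverse complement reads CACGC.
Gja1 (chr10:56377050-56377349, plus strand): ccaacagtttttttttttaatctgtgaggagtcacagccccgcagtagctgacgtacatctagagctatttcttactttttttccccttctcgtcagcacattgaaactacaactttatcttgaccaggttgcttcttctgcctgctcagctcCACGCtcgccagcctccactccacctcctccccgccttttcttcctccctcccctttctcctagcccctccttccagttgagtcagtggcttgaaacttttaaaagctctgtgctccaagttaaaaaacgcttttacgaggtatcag
Gjb6 (chr14:57133562-57133861, minus strand): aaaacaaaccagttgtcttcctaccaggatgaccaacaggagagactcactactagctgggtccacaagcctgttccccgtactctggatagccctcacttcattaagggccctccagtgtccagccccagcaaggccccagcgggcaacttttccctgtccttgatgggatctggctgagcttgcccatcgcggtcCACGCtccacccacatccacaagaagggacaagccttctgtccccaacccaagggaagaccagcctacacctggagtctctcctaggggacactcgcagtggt
Gjb5 (chr4:127358115-127358414, minus strand): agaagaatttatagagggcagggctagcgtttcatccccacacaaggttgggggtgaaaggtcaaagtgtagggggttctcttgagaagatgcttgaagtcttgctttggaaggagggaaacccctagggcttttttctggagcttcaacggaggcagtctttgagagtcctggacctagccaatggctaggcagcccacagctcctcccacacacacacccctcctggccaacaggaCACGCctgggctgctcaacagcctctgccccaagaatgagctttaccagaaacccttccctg
Gjb2 (chr14:57104653-57104952, minus strand): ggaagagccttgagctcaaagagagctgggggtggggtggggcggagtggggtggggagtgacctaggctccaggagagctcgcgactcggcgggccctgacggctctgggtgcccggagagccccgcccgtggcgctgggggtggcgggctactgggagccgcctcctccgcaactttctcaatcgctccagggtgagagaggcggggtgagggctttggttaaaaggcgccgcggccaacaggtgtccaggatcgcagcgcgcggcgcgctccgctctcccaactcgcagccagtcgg
The windows of Gja1, Gjb6 and Gjb5 each held 1 core, in all 3 on the strand opposite to the gene. Its leftmost base lay at position -97 for Gja1, -53 for Gjb6 and -12 for Gjb5, counted from the start. The window of Gjb2 held none and was the richest of the 4 in G and C, at 70.0%, against 57.3% for Gjb6, 54.3% for Gjb5 and 47.7% for Gja1. Of the 4 windows listed for Gjb1, which has several annotated starts, 1 held a core. Such a match is common, since 32.4% of all 32851 promoter windows held at least 1 core. It describes the letters of these windows and says nothing of binding.

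With both arrays scaled to equal trimmed means, none of the measured connexin genes was higher in transgenic skin. The 9 probe sets with a measurable signal, from 4 of the 5 genes, all read lower on the transgenic array, by 1.03-fold to 1.66-fold. Centred on the median of all measured genes, Gjb2 and the brightest Gja1 probe set stood just above 0, at log2 ratios of 0.004. Gjb6 and a pair of Gja1 probe sets were the furthest below equality, while Gjb2 read nearly the same on both arrays. A probe set counted as measurable when its signal was above a floor of 34.7, the 40th percentile of all signals, on at least 1 array. By the brightest probe set of each gene, 0 of the 4 measured genes passed a 2-fold difference in either direction. Over all 8894 measured genes 2.27% read higher by that factor or more and 1.09% read lower, so a set of so few genes with none past that limit does not stand apart. At a limit of 1.5-fold, which 6.8% of all measured genes passed upwards and 6.38% downwards, the count of connexin genes was 0 too, as it was at 3-fold, passed by 0.686% upwards and 0.101% downwards. Lower readings were also the commoner direction over the whole array, with 56.4% of measured genes below 0 and a median log2 ratio of -0.05. The median over the 4 connexin genes was -0.13.

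**Figure D1:**
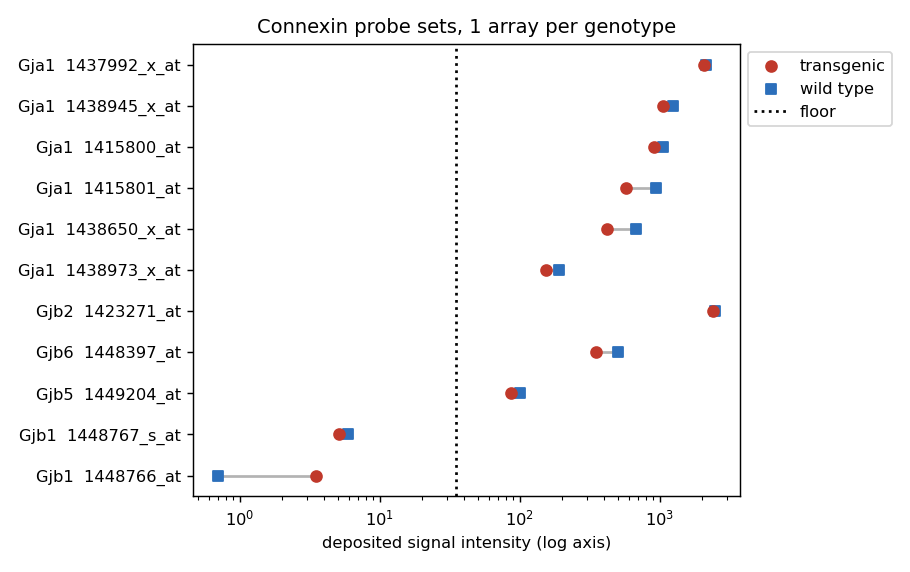
Deposited signal intensity (log axis) of each connexin probe set, with a red circle for the transgenic array and a blue square for the wild-type array, and the floor of 34.7 as a dotted line. Both Gjb1 probe sets lie below the floor on both arrays, and in the other 9 the transgenic signal lies below the wild-type one.

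Gja1, the alpha connexin, was read by 6 probe sets, and all were far above the floor on both arrays. The brightest, 1437992_x_at, had a signal of 2064.2 in transgenic skin and 2126.1 in wild-type skin, a log2 ratio of transgenic over wild type of -0.04. Probe set 1438945_x_at read 1054.6 in transgenic and 1241.2 in wild-type skin (-0.24), and 1415800_at read 905.6 in transgenic and 1058.5 in wild-type skin (-0.23). These 3 probe sets, which gave the highest signals for the gene, placed it within 1.18-fold of equality.

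A larger difference came from the next pair. Probe set 1415801_at read 569.2 in transgenic skin, against 946 in wild-type skin, a log2 ratio of -0.73 or 1.66-fold lower. Probe set 1438650_x_at read 420.7 in transgenic skin, against 680.1 in wild-type skin, a log2 ratio of -0.69 or 1.62-fold lower. At a limit of 1.5-fold these were the 2 connexin probe sets past it. Of all measured genes only 3.33% and 4.05% had a ratio below these, whereas 50.5% lay below the ratio of the brightest Gja1 probe set. The dimmest, 1438973_x_at, read 153.8 in transgenic and 188.9 in wild-type skin (-0.30).

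The 6 probe sets thus gave the same direction with different sizes, from -0.73 to -0.04, with a median of -0.27 and a mean of -0.37. The mean of the 4 outside the low pair was -0.20. The order did not follow brightness throughout, since the dimmest of the 6 was not among the lowest ratios. Probe sets 1415800_at and 1415801_at were designed on the same transcript record and have no suffix that marks possible binding to other transcripts, yet they differed by 0.51. In 1764 genes that had 2 probe sets measurable on each array, the median difference between the 2 was 0.22, and in 15.7% it was larger than that between these Gja1 probe sets. Of 21 genes with 6 such probe sets, 4 had a wider range than the 0.69 of Gja1, and the median range was 0.44. The stretch of transcript that each one reads was not analysed here.

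**Figure D2:**
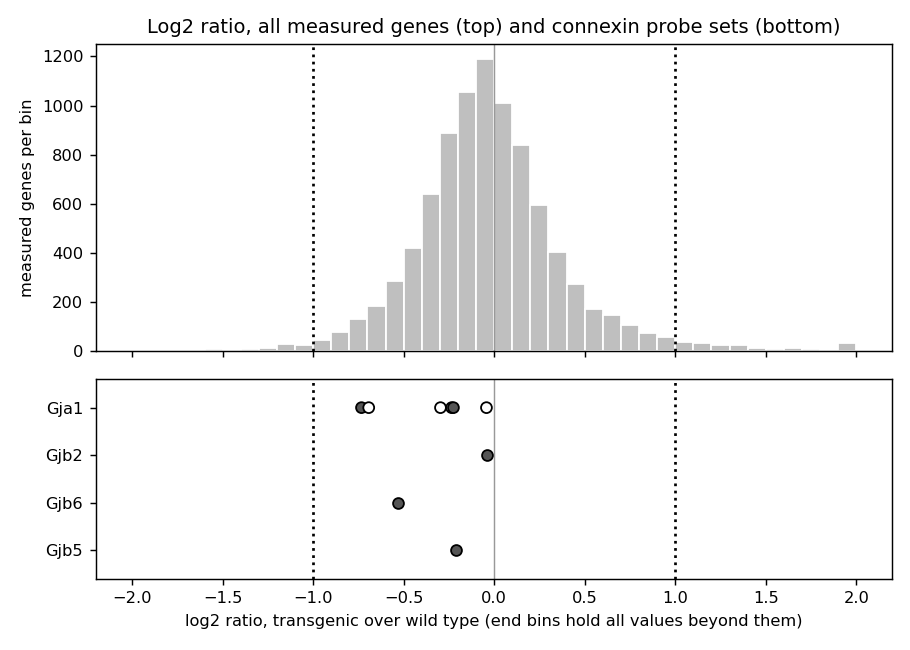
Log2 ratio (transgenic over wild type), as a histogram of all 8894 measured genes (top) and for each measured connexin probe set (bottom), with open circles for probe sets whose name carries a letter suffix and dotted lines at a 2-fold difference. The Gja1 probe sets spread from -0.73 to -0.04, Gjb6 lies at -0.53, Gjb5 at -0.21 and Gjb2 at -0.04, all inside the 2-fold limits.

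The beta connexins differed in the size of their ratios. Gjb2, the gene of Cx26, read 2399.5 in transgenic skin and 2471 in wild-type skin, a log2 ratio of -0.04. That is close to the middle of all measured genes, of which 50.5% had a lower ratio. Gjb6, its neighbour on chromosome 14 and the gene of Cx30, read 349.5 in transgenic skin, against 504.5 in wild-type skin. This was a log2 ratio of -0.53, or 1.44-fold lower, and 8.08% of measured genes had a lower one. The ratios of Gjb6 and Gjb2 therefore differed by -0.49, and with 1 probe set for each gene no second reading of that difference exists. Gjb5, the gene of Cx31.1, a connexin of differentiating keratinocytes, read 86.8 in transgenic skin and 100.3 in wild-type skin (-0.21), with 30.1% of measured genes below it. Gjb5 was the member closest to the floor among those measured, and Gjb2, Gjb5 and Gjb6 each rested on a single unsuffixed probe set.

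Gjb1 could not be compared. Its probe set 1448767_s_at read 5.1 in transgenic and 5.9 in wild-type skin, and 1448766_at read 3.5 in transgenic and 0.7 in wild-type skin. Both lay well below the floor on both arrays and pointed in opposite directions, so no fold is given.

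The other connexins were hardly detectable in this skin. Of 8 further connexin genes on the array, 6 (Gja5, Gja10, Gjc1, Gjc3, Gjd2 and Gjd4) lay below the floor on both arrays. Gja4, the Cx37 gene of arterial endothelium, read 37.4 in transgenic and 42.2 in wild-type skin (-0.17). Gja3, known from the lens, read 30.9 in transgenic skin, below the floor, and 39.5 in wild-type skin, a log2 ratio of at most -0.19. Of the 13 connexin genes on the array in all, 6 were measured, and all 6 had ratios below 0. After centring on the median, Gja1 and Gjb2 stood just above 0, at 0.004. The single direction also depended on the floor. With a floor at the 20th percentile, 5 of the other connexins were measured, 2 below 0 and 3 above it, with a median of 0.19 in place of -0.18. The channel gene Panx1, a pannexin, which resembles connexins in topology but not in sequence, read 64.3 in transgenic and 68.5 in wild-type skin (-0.09). Of the 3 pannexin genes listed, Panx2 and Panx3 had no probe set annotated to them alone.

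Genes whose products bind connexins or take part in their trafficking and turnover were mixed. Of 11 measured genes in this list, 7 were below 0 and 4 above it, with a median of -0.17. Between 6 and 7 of the 11 lay below 0 under each of the scalings tried. The lowest was Tjp1, the gene of ZO-1, a scaffold that binds the tail of Cx43, at 287.5 in transgenic skin, against 423.6 in wild-type skin (-0.56). Next came Nedd4, a ubiquitin ligase of Cx43, at 412.4 in transgenic and 539 in wild-type skin (-0.39), and its other probe sets gave -0.31 and -0.29. The highest was Cav2, a caveolin gene, at 360.6 in transgenic and 177.9 in wild-type skin (1.02), which made it 2.03-fold higher and the 1 gene of the list past 2-fold, a limit that 2.27% of all measured genes passed upwards. Its other probe set, also unsuffixed, gave only 0.05, and the gene no longer passed 2-fold with the mean over probe sets or when a pseudocount of 16 replaced the floor. Ccn3, whose product is a matricellular protein that can bind Cx43, was second highest at 89.1 in transgenic and 64.3 in wild-type skin (0.47), and its other probe set gave 0.50.

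Adherens junctions, which hold the membranes of neighbouring keratinocytes together, had genes close to equality. Of 8 measured genes 4 were below 0 and 4 above it, none was 2-fold different, and the median log2 ratio was -0.01. Between 3 and 5 of the 8 lay below 0 under each of the scalings tried. Cdh1, the gene of E-cadherin, read 613.1 in transgenic and 606.6 in wild-type skin (0.02). Ctnnd1, the gene of the cadherin-binding p120 catenin, was lowest at 103.9 in transgenic skin, against 184.2 in wild-type skin (-0.83, 1.77-fold lower), followed by Nectin4 (-0.27, and -0.57 in its dimmer probe set). Vcl, the gene of vinculin, was highest (0.40), followed by the P-cadherin gene Cdh3 (0.17). Nectin1 lay below the floor.

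**Figure D3:**
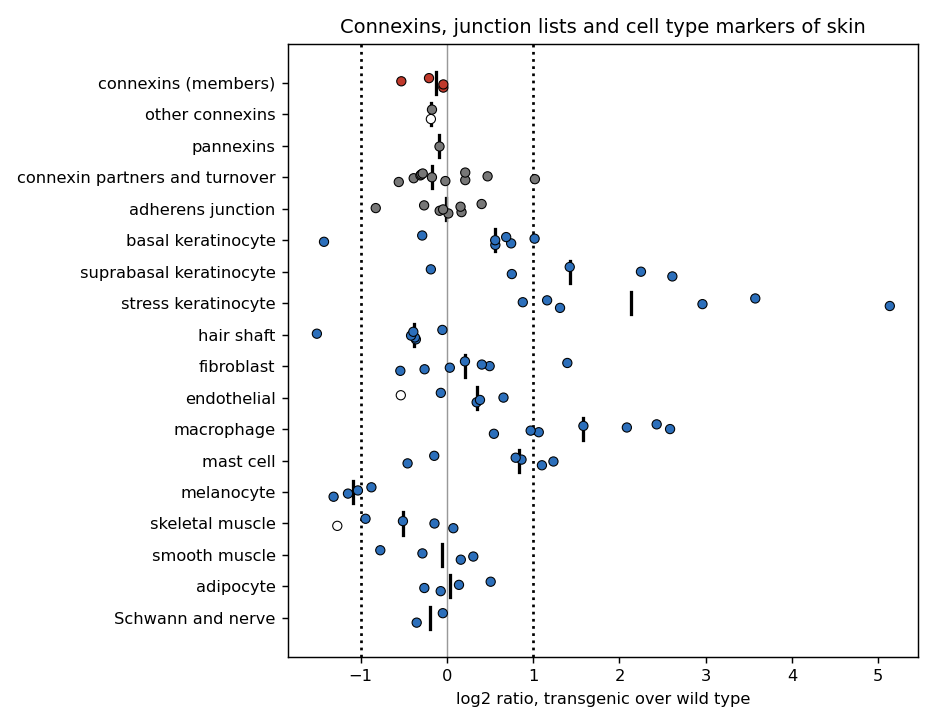
Log2 ratio (transgenic over wild type) for each measured gene (points) of the connexins, the junction lists and the cell type marker lists, with the list median as a bar, open points where 1 array lay at the floor and dotted lines at a 2-fold difference. The connexins lie from -0.53 to -0.04, while the medians of the suprabasal (1.42) and stress keratinocyte (2.14) markers lie far to the right.

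The connexin readings stood beside larger differences in markers of the cells that make up skin. The defining markers of keratinocytes were bright on both arrays, with a summed signal of 7 basal markers of 7761.7 in transgenic and 5767.3 in wild-type skin. Of those 7, 5 were above 0, with a median of 0.56, and 4 of 5 suprabasal markers were above 0, with a median of 1.42. All 6 markers of stressed keratinocytes were above 0, with a median of 2.14 and a summed signal of 9296.4 in transgenic and 3155.7 in wild-type skin. Gja1 and Gjb2 at -0.04, Gjb5 at -0.21 and Gjb6 at -0.53 thus lay below the medians of all 3 keratinocyte lists. So did most measured genes, whose median log2 ratio was -0.05. The difference between the connexins and those lists was not tested.

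Markers of other cells were also present. All 6 hair shaft markers were below 0, with a median of -0.38, and their summed signal was 14768.9 in transgenic and 18439.6 in wild-type skin. The 7 fibroblast markers had a median of 0.21, with 5 above 0 (4 under quantile normalization, lowess centring, the mean over probe sets or no suffixed probe sets) and summed signals of 9618.1 in transgenic and 10043.1 in wild-type skin. Among 5 measured endothelial markers 3 were above 0, with a median of 0.34. Their list, with Tie1 below the floor, summed to 298.5 in transgenic and 255.3 in wild-type skin. These signals were low, and with a floor at the 60th percentile only 1 endothelial marker was measured. All 7 macrophage markers were above 0, with a median of 1.58, and summed to 1931.7 in transgenic and 668.3 in wild-type skin. All 4 melanocyte markers were below 0, 3 of them by at least 2-fold, with a median of -1.09, and summed to 1103.2 in transgenic and 2239.7 in wild-type skin. Of 5 measured skeletal muscle markers 4 were below 0, with a median of -0.51, and the list summed to 3484.3 in transgenic and 3992.5 in wild-type skin. Of 6 mast cell markers 4 were above 0, 2 of them by at least 2-fold, with a median of 0.83 and sums of 932.5 in transgenic and 556 in wild-type skin. Both measured Schwann cell and nerve markers were below 0 (1 of the 2 under quantile normalization, lowess centring or the mean over probe sets), with a median of -0.20 and list sums of 245.7 in transgenic and 303.8 in wild-type skin. The smooth muscle (-0.06) and adipocyte (0.03) medians were near 0. Past 2-fold upwards were also 5 macrophage, 5 stress keratinocyte, 3 suprabasal, 1 basal and 1 fibroblast marker. Downwards, 1 basal, 1 hair shaft and 1 skeletal muscle marker passed 2-fold too. Over all measured genes 2.27% passed that limit upwards and 1.09% downwards. By its brightest probe set, no marker of any list was at a signal of 0 on either array. The part of any of these cells in the connexin readings was not tested, and in whole skin fewer cells of a type and less RNA per cell cannot be told apart.

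**Figure D4:**
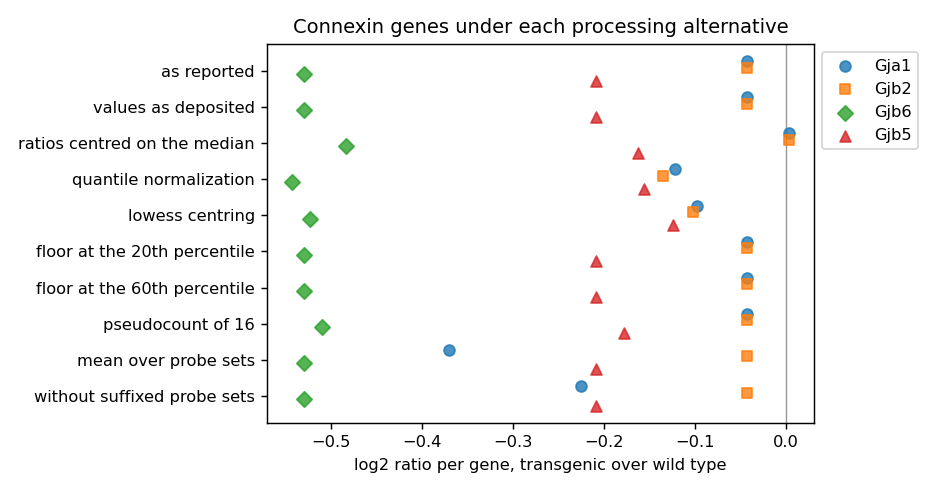
Log2 ratio of transgenic over wild type for Gja1, Gjb2, Gjb6 and Gjb5 as reported (top row) and under each processing alternative, with the genes set apart slightly within a row. Gjb6 stays between -0.54 and -0.48 and Gjb5 between -0.21 and -0.12, while Gja1 runs from -0.37 with the mean over its probe sets to 0.00 after centring on the median.

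The choice of probe set mattered for Gja1, the member with several measured probe sets. By its brightest probe set the gene stood at -0.04, without the suffixed probe sets at -0.23, and with the mean over all 6 at -0.37. Gjb6 was lowest of the 4 genes under every alternative drawn in the plot of processing alternatives, with values from -0.54 to -0.48.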

How the data were processed

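Total RNA of back skin carried a biotin label, per the labels, and each array has 1 colour. The authors deposited a linear signal intensity for each probe set. Both arrays have a 2% trimmed mean of 100.03, so a scaling step came before the deposit, with software not given in the sources. Neither scanner files nor detection calls were used here. Of 22690 probe sets 64 were controls, 20380 had 1 gene in the platform annotation of 2016, 691 several and 1555 none. Only those with 1 gene were named, through the gene table of GRCm38.p6.

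Signals were scaled to equal trimmed means, raised to the floor and put on the log2 scale (numpy 2.4.6, pandas 2.3.3). A ratio with 1 array at the floor is a bound. The brightest probe set, by the sum of both signals, stood for each gene. The calculation was tested on simulated data, with differences placed only in genes far above the floor on both arrays. Differences in dim genes were not covered. Neither was disagreement among the probe sets of a gene, since each was given the same difference. The number of arrays limits the precision. The members, the lists and the floor were chosen with earlier results of these data known. Named are all members with every probe set and, of each junction list, the 2 highest and 2 lowest genes and those past 2-fold (Cdh1 was added after its values were seen); marker lists are given by counts, medians and sums. No gene of like pattern is named, since 2 arrays give 1 ratio per gene. Protein sequences were not used here. The alternatives were the values as deposited, centring on the median, quantile normalization, lowess centring (span 0.4, statsmodels 0.14.6), a pseudocount of 16, a floor at the 20th or the 60th percentile, the mean over probe sets, no suffixed probe sets, and limits of 1.5-fold and 3-fold.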

Additional observations from a re-analysis of the deposited data

How the results depend on the processing

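No result changed sides of a 2-fold difference among the connexin genes, 0 of which passed 1.5-fold, 2-fold or 3-fold in either direction by their brightest probe set under the settings run. Of 243 values computed under alternatives, 237 stayed close to the reported ones (within 0.22 on the log2 scale, the median difference between 2 probe sets of a gene, or within 1.5 times for a count). Much of that closeness was fixed in advance, so the share does not measure robustness. The deposited arrays already had nearly equal trimmed means, and a floor leaves the ratio of a probe set above it unchanged. Gjb2, Gjb5 and Gjb6 have 1 probe set each, so their gene and probe set values repeat. Those that moved were Gja1 with the mean over its probe sets (-0.37), the median of the other connexins under a floor at the 20th percentile (0.19, over 5 measured genes in place of 2), the 1 connexin partner past 2-fold (0 with a pseudocount of 16, with the mean over probe sets and at 3-fold) and the adherens junction genes lower (1 at 1.5-fold, Ctnnd1). Under a floor at the 60th percentile neither the other connexins nor the pannexins had a measured gene. Over all genes the 2-fold counts were 202 higher and 97 lower, against 393 and 257 for the 20th percentile as floor and 123 and 45 for the 60th. No paired analysis was possible because each genotype has 1 array.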
